A study of Mus musculus with 25 samples.

Results

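Myelin genes were followed across the adult life of the mouse brain through 9 genes that mature oligodendrocytes express strongly: Mbp, Mog, Mag, Mobp, Cnp, Mal, Opalin, Cldn11 and Ermn. They were chosen by name, as compact myelin and oligodendrocyte genes, and matched by Ensembl identifier to 9 of the 47729 genes of the deposited count table. All 9 passed the filter on low counts, which kept 17472 genes in the 20 libraries of 2 to 24 months. Gene expression had been measured by RNA sequencing of brain hemispheres, with male mice of the inbred strain C57BL/6 as donors and no genetic change or treatment named in the labels. There were 5 groups, mice of 2, 9, 15, 24 and 30 months, with 5 libraries each. The labels give each library its own number but do not say how animals were kept, killed or sampled, so p-values measure the spread between these libraries.

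Oligodendrocytes wrap their membrane many times around axons of the central nervous system, and the resulting sheath insulates the axon and lets impulses jump from node to node. Most of the sheath is compact myelin, in which the basic proteins Mbp and Mobp hold the cytoplasmic faces of the membrane together. Other members lie outside it: Mog on the outer surface of the sheath, Mag on the inner surface that faces the axon, and Cnp in the channels of cytoplasm that remain open. Mal sorts lipids and proteins into the myelin membrane, Cldn11 forms its tight junctions, Opalin is a membrane glycoprotein of oligodendrocytes, and Ermn binds actin in their processes.

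Several of these genes are textbook targets of Sox10 and Myrf, the factors that switch on the myelin programme, and 4 of their promoters are printed. Mag and Cnp hold a form of the Myrf motif, Mobp holds many copies of a Sox motif, and Ermn is the member that rose when others fell. The sequences are the 250 bases before the RefSeq transcript start (GRCm38.p6), read 5′ to 3′ on the gene's own strand, and RefSeq windows were matched for 8 of the 9 genes. Capitals mark ACAAAG or ACAATG, forms of the core motif of Sox factors, their reverse complements CTTTGT and CATTGT, and CTGGCAC or its reverse complement GTGCCAG, a form of the Myrf motif.
Mag, chr7:30914864-30915113, minus strand: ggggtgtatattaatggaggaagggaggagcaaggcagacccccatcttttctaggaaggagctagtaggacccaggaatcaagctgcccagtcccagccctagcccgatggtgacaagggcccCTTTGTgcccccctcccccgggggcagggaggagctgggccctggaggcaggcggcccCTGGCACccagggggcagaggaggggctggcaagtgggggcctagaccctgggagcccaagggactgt
Cnp, chr11:100574689-100574938, plus strand: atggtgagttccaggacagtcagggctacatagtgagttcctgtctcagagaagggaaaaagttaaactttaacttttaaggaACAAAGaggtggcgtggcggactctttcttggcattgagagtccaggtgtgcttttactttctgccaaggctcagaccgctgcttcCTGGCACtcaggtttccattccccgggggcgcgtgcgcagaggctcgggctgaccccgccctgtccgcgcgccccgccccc
Mobp, chr9:120149492-120149741, plus strand: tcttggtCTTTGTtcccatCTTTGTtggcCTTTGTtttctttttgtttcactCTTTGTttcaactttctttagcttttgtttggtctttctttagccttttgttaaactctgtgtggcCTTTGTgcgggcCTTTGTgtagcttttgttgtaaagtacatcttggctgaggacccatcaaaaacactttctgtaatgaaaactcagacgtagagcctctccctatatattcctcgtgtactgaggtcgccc
Ermn, chr2:58052865-58053114, minus strand: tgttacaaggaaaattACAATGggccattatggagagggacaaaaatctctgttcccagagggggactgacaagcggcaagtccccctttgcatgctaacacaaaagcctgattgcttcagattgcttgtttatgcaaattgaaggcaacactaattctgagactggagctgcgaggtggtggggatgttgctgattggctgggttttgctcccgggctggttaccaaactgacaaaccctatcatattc
Over both strands, ACAAAG was found in 16.5% of 32851 RefSeq windows of this length, ACAATG in 10.7% and either in 25.2%. Among the 8 members 5 held either motif in their first listed window. Mobp held 6 copies of ACAAAG, all read as CTTTGT on the strand printed, and was the 1 window of 32851 with 6 or more. Both Mag and Cnp held CTGGCAC, which was found in 4.19% of all windows. TATAAA was in 12.4% of all windows and in the first listed window of 0 of 8 members. These are matches of letters, and binding was not measured.

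The libraries held 17800113 to 31261121 counts, with a median of 23106081, and no pair of libraries held identical counts. At 30 months, replicates 2 to 5 differed from all other libraries in GC content. A gap between the protein-coding genes in the highest and lowest decile of GC content was taken as the difference of their median log2 levels, each gene relative to its mean in the younger libraries. This gap was -0.24 to 0.15 in the 20 libraries of 2 to 24 months and 0.13 in 30 months replicate 1. In 30 months replicates 2 to 5 it was 1.03 to 1.84. The ages of 2 to 24 months were therefore fitted by themselves, and the 30 month group is given separately, with and without these libraries. Alb, a liver transcript, stood between 0 and 128 CPM at 2 months (CPM are counts scaled to equal library size, after TMM normalization). It ranged over 0.565 to 24.2 CPM at 9 months, 7.73 to 91.5 at 15, 38.5 to 171 at 24 and 0.0478 to 125 at 30 months. Ttr, a marker of the choroid plexus, was at 17.9 CPM in 9 months replicate 1, against 368 to 843 CPM elsewhere.

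The label brain was checked against markers of peripheral myelin, which hemispheres should hold little of. The Schwann cell marker Prx, a scaffold protein of peripheral myelin, stood at 1.12 to 2.09 CPM over the 25 libraries. Mbp, in contrast, was at 2234 CPM or more in every library. Together the 9 genes took a median of 0.420% of all counts at 2 months, 0.402% at 9, 0.391% at 15, 0.490% at 24 and 0.626% at 30 months. This share mostly follows Mbp, which had a mean of 2448 CPM at 2 months, where the 9 genes summed to a median of 4247 CPM. At 30 months it ranged over 0.502% to 0.695% and takes in the libraries with the large GC gap. In bulk tissue a lower level can come from fewer oligodendrocytes or from less RNA in each, and the 2 cannot be told apart.

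Levels per kilobase were divided by the union of all annotated exons of a gene, from 1704 bases for Mog to 8469 for Mbp. This is not the length of the transcripts expressed, and the order of genes may depend on it. Per kilobase of exon, Mbp had the highest level of the 9 genes at 2 months, with 289 ± 16.2 CPM per kb (SD, n = 5). Mobp came next with 113 ± 8.59 CPM per kb. Cnp and Mal followed with 95.9 ± 5.34 and 94.8 ± 10.1 CPM per kb, and their libraries overlapped. Below them stood Cldn11 with 73.1 ± 7.10 CPM per kb. Mog and Mag, at 47.5 ± 4.03 and 45.6 ± 3.39 CPM per kb, again overlapped. Ermn was lower at 21.7 ± 1.27 and Opalin lowest at 6.51 ± 0.476 CPM per kb. Apart from the pairs Cnp with Mal and Mog with Mag, the libraries of neighbours in this order did not overlap. At 24 months Mag, with 44.7 ± 0.863 CPM per kb, stood above Mog, with 38.0 ± 1.08 CPM per kb, and their libraries did not overlap.

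In the GENCODE M21 annotation of GRCm38 the 9 genes lie on 8 chromosomes, and only Mal and Ermn share one. Mbp (ENSMUSG00000041607) spans 82475146 to 82585637 of chromosome 18, Mog (ENSMUSG00000076439) 37010743 to 37023398 of chromosome 17 and Mag (ENSMUSG00000036634) 30899176 to 30914873 of chromosome 7. Mobp (ENSMUSG00000032517) spans 120149707 to 120181484 of chromosome 9, Cnp (ENSMUSG00000006782) 100574904 to 100591729 of chromosome 11 and Mal (ENSMUSG00000027375) 127633226 to 127656695 of chromosome 2. Opalin (ENSMUSG00000050121) spans 41061710 to 41077113 of chromosome 19, Cldn11 (ENSMUSG00000037625) 31149920 to 31164324 of chromosome 3 and Ermn (ENSMUSG00000026830) 58045113 to 58052864 of chromosome 2. All are protein-coding, and the counts are given per gene, so isoforms are not separated. The GC content of the longest transcript runs from 38.0% in Ermn and 45.8% in Opalin to 54.8% in Cnp and 57.6% in Mag. Cnp shares 154 exonic bases with Dnajc7 on the opposite strand, which had up to 5078 counts, and Ermn shares 237 with Galnt5, which had at most 32. The library kit is not stated to keep the strand, so reads of these stretches cannot be assigned to one gene.

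All 9 genes differed among 2, 9, 15 and 24 months (edgeR's quasi-likelihood F test, adjusted p between 2.75e-06 for Mog and 0.00913 for Mal). Over all genes tested the share past this test was 45.3%. Mog, Mag and Cnp, 3 of the 9, passed as lower at 9 and 15 months than at 2 months. The same 3 passed as higher at 24 months than at 9 and 15 months. The share of all genes with this joint pattern was not counted, so whether 3 of 9 is unusual was not tested. The members did not move as 1 block, however: at 9 months Mbp and Mobp did not pass the test, Mog, Mag, Cnp, Opalin and Cldn11 fell, and Ermn rose.

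**Figure D1:**
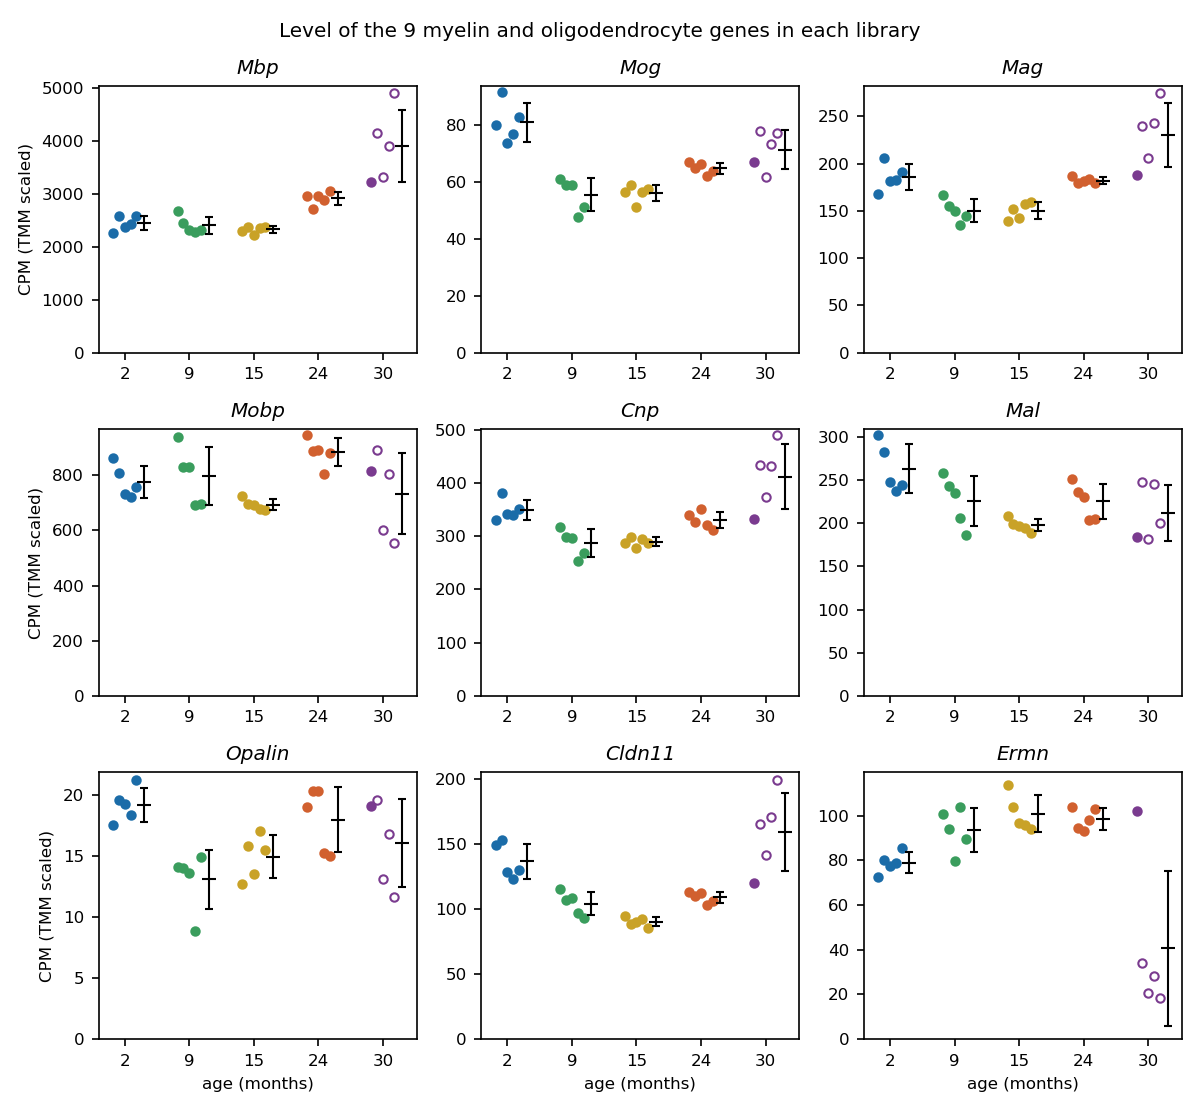
Level of each gene in every library. The x axis gives the age in months and the y axis CPM after TMM scaling, from 0. Each circle is 1 library, the bar beside it the mean ± SD of the 5 libraries, and open circles mark 30 months replicates 2 to 5. Mog stands at 73.6 to 91.6 CPM at 2 months and at 47.7 to 61.1 CPM at 9 months, whereas the Mbp libraries of 2, 9 and 15 months overlap.

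By 9 months 5 of the 9 genes had fallen, namely Mog, Mag, Cnp, Opalin and Cldn11, and Ermn had risen. Over all genes, 6.96% were lower and 7.92% higher in this comparison. For the 5 that fell all 9 month libraries lay below all 2 month libraries, which held for 4.63% of all genes. The median log2 fold change of the 9 genes was -0.28, against -0.01 over all genes. At 15 months against 2 months Mog, Mag, Cnp, Mal and Cldn11 were lower and Ermn higher, where 6.95% and 6.10% of all genes were called, and the members' median was -0.30. In these 5 and in Opalin all 15 month libraries lay below all 2 month libraries, and in Ermn above, where 5.87% and 4.64% of all genes did so. Between 9 and 15 months only Cldn11 passed the test, lower by 0.21 on the log2 scale, where 6.45% of all genes were lower and 4.45% higher. That call was lost in 11 of 27 alternatives. Summed markers of other cells were 5906 to 6497 CPM at 2 months and 6190.2 to 7006 CPM at 9 months for neurons, and 1287 to 1314 CPM and 1245 to 1397 CPM for astrocytes. For oligodendrocyte precursors they were 528 to 579 CPM at 2 months and 480.2 to 561 CPM at 9 months, and 3 of their 5 markers, Pdgfra (-0.18), Cspg4 (-0.16) and Vcan (-0.26), passed as lower at 9 months and 0 as higher. The part of these in the members' changes was not tested.

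Mbp, the most abundant member, stood at 2264, 2579, 2386, 2426 and 2587 CPM in the 2 month libraries and at 2674, 2459, 2316, 2287 and 2322 CPM at 9 months. The 15 month libraries held 2307, 2377, 2234, 2366 and 2376 CPM. The 24 month libraries held 2955, 2727, 2965, 2886 and 3055 CPM. The first 3 ages overlapped, and all 5 libraries of 24 months lay above every one of them. Mbp did not pass the test at 9 months (log2 fold change -0.02 ± 0.04, SE, adjusted p = 0.783) or at 15 months (-0.07 ± 0.04). At 24 months it was 19.2% higher than at 2 months (0.25 ± 0.04, adjusted p = 0.000125). In a fit that took in the 30 month libraries the size was the same, 0.25, and the call was lost (adjusted p = 0.0577). The Mbp gene also gives Golli transcripts, which neurons and immune cells can make, and the counts do not separate them.

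Mobp, the other basic protein of compact myelin, ranged over 721 to 863 CPM at 2 months, 692 to 937 at 9 and 673 to 724 at 15 months. Neither 9 months (log2 fold change 0.04 ± 0.07, adjusted p = 0.784) nor 15 months (-0.16 ± 0.07, 0.171) differed from 2 months by the test. Its 24 month libraries, at 806 to 947 CPM, all stood above the 15 month libraries and overlapped those of 2 and 9 months. The rise from 15 to 24 months was 0.35 ± 0.07 (adjusted p = 0.00283).

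Mog, an immunoglobulin-like protein of the outermost myelin surface, had the smallest p of the members over the 4 ages. It stood at 80.0, 91.6, 73.6, 76.8 and 82.8 CPM at 2 months, and at 61.1, 58.8, 58.8, 47.7 and 51.2 CPM at 9 months. The 15 month libraries held 56.6, 58.8, 51.4, 56.5 and 57.5 CPM, and those of 24 months 66.9, 64.9, 66.2, 62.2 and 64.0 CPM. Every library of 9, 15 and 24 months lay below every library of 2 months, and every library of 24 months lay above all those of 9 and 15 months. Against 2 months the level was 31.1% lower at 9 months (log2 fold change -0.54 ± 0.06, adjusted p = 8.44e-06), 30.3% lower at 15 months (-0.52 ± 0.06, 1.39e-05) and 19.8% lower at 24 months (-0.32 ± 0.06, 0.000650).

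Mag, a sialic acid binding adhesion molecule that faces the axon, had 168, 206, 181, 183 and 191 CPM at 2 months. It had 167, 155, 149.9, 135 and 144 CPM at 9 months and 139.6, 152, 142, 157 and 159.7 CPM at 15 months. Both middle ages lay wholly below 2 months, though 9 months replicate 1, at 167 CPM, came next to the lowest 2 month library at 168 CPM. The fall at 9 months was 19.0% (log2 fold change -0.30 ± 0.05, adjusted p = 0.000693). At 24 months the libraries held 187, 179, 181, 184 and 179 CPM, within the range of 2 months (log2 fold change -0.03 ± 0.05, adjusted p = 0.733).

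Cnp, a phosphodiesterase that helps keep the cytoplasmic channels of myelin open, ranged over 331 to 381 CPM at 2 months, 277 to 299 at 15 and 312 to 350.1 at 24 months, and had 287 ± 25.4 CPM at 9 months (SD, n = 5). The 9 and 15 month libraries all lay below the 2 month libraries, and those of 24 months overlapped them. The fall at 9 months was 17.6% (log2 fold change -0.28 ± 0.05, adjusted p = 0.000789), and 24 months did not differ from 2 months by the test (-0.08 ± 0.05, 0.257). At 15 months it was lower by 16.7% (-0.26 ± 0.05, adjusted p = 0.00164), a call lost in the fit that took in the 30 month libraries (-0.27, 0.0796). The rise of Cnp from 9 to 24 months was lost in that fit too (0.20, adjusted p = 0.0966).

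Ermn, the actin-binding protein of mature oligodendrocytes, rose after 2 months, opposite to the members that fell. Its levels were 72.6, 80.2, 77.6, 79.0 and 85.4 CPM at 2 months, 101, 93.9, 79.7, 104 and 89.4 CPM at 9 months and 114, 104, 96.9, 96.0 and 94.2 CPM at 15 months. The 24 month libraries held 104, 94.7, 93.0, 98.2 and 103 CPM. At 9 months 1 library, replicate 3, fell within the 2 month range, and at 15 and 24 months all libraries stood above it. The rise was 18.6% at 9 months (log2 fold change 0.25 ± 0.07, adjusted p = 0.0191), 28.3% at 15 (0.36 ± 0.07, 0.00183) and 25.2% at 24 months (0.32 ± 0.07, 0.00194). Of the 9 genes Ermn has the lowest GC content, and the GC gap at 15 months was -0.24 to -0.08, below every other library of 2 to 24 months. After GC correction Ermn still ranged over 80.9 to 92.9 CPM at 15 months against 63.1 to 74.5 CPM at 2 months. In the fit that took in the 30 month libraries, among which Ermn varied widely, none of the 3 rises passed (adjusted p = 0.585 to 0.791).

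Mal, a raft protein of myelin membrane transport, ranged over 238 to 303 CPM at 2 months, 187 to 258 at 9, 189 to 208 at 15 and 204 to 251 at 24 months. Only the 15 month libraries lay wholly below those of 2 months, and the fall of 24.7% was the only one of Mal to pass (log2 fold change -0.41 ± 0.09, adjusted p = 0.00587). At 9 months the value was -0.22 ± 0.09 (adjusted p = 0.105) and at 24 months -0.22 ± 0.09 (0.0765).

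Opalin, the least abundant member, had 17.5, 19.6, 19.2, 18.3 and 21.2 CPM at 2 months and 14.1, 14.0, 13.6, 8.85 and 14.9 CPM at 9 months. The 9 month libraries lay below all those of 2 months, with replicate 4 far below the rest. The fall was 31.5% (log2 fold change -0.55 ± 0.12, adjusted p = 0.00630), and without replicate 4 of 9 months it was -0.44 (adjusted p = 0.00438). At 15 months, with 12.7 to 17.0 CPM, the difference from 2 months was -0.35 ± 0.12 (adjusted p = 0.0690). At 24 months Opalin ranged over 15.0 to 20.3 CPM, and its difference from 2 months was -0.09 ± 0.12 (0.612).

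Cldn11, the claudin of the tight junctions that run through myelin, had 149, 153, 128, 123 and 129.9 CPM at 2 months. It had 115, 107, 108, 97.0 and 93.1 CPM at 9 months and 94.2, 88.3, 89.7, 92.5 and 85.3 CPM at 15 months. The 24 month libraries held 113, 109.9, 112, 103 and 106 CPM. All 15 libraries of these 3 ages lay below every 2 month library. The level was 23.8% lower at 9 months (log2 fold change -0.39 ± 0.06, adjusted p = 0.000237), 33.9% lower at 15 (-0.60 ± 0.06, 4.96e-06) and 20.2% lower at 24 months (-0.33 ± 0.06, 0.000632). Arachnoid cells of the meninges also make Cldn11, and the summed level of 6 meningeal and arachnoid markers was 112 to 207 CPM at 2 months and 112 to 121 CPM at 9 months. Of these 6, Col1a2 was lower at 9 months (-0.67, adjusted p = 0.00763) and 5 did not pass, and their part in the fall of Cldn11 was not tested.

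**Figure D2:**
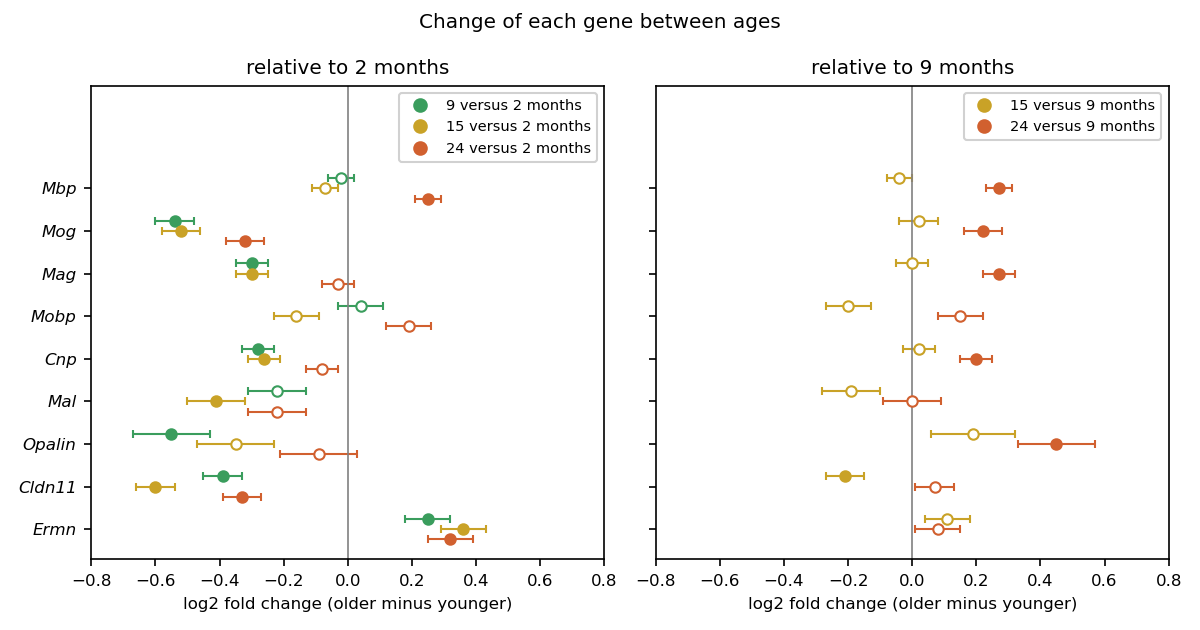
Log2 fold change of each gene between ages, older minus younger, with 2 months as the base on the left and 9 months on the right. Circles are the estimates of the fit of the 20 libraries of 2 to 24 months, bars are ± 1 SE, and filled circles passed an adjusted p of 0.05. Mog is at -0.54, -0.52 and -0.32 against 2 months and Ermn at 0.25, 0.36 and 0.32.

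From the middle ages to 24 months the members' changes that passed were rises. Against 9 months Mbp (log2 fold change 0.27 ± 0.04), Mog (0.22 ± 0.06), Mag (0.27 ± 0.05), Cnp (0.20 ± 0.05) and Opalin (0.45 ± 0.12) were higher, 5 of 9 genes, where 15.4% of all genes were higher and 15.3% lower. Adjusted p ran from 4.30e-05 for Mbp to 0.00971 for Opalin. Against 15 months 6 of 9 were higher, where 11.9% of all genes were higher and 12.2% lower: Mbp by 0.32 ± 0.04 (adjusted p = 2.47e-05), Mobp by 0.35 ± 0.07, Mag by 0.27 ± 0.05, Cldn11 by 0.27 ± 0.06, Mog by 0.20 ± 0.06 and Cnp by 0.18 ± 0.05. The members' medians were 0.20 and 0.26, and the median of all genes was 0.01 in both. The 24 month libraries lay wholly above those of 9 months for 4 members, Mbp, Mog, Mag and Opalin, where 8.53% of all genes did, and above those of 15 months for all 6 that rose, where 8.68% did. Against 2 months, by contrast, 4 of 9 members passed the test at 24 months, where 22.8% of all genes did: Mbp and Ermn were higher and Mog and Cldn11 lower. Their libraries did not overlap with those of 2 months, as held for 7.12% of all genes on the higher side and 7.54% on the lower.

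Alb RNA was carried by all 5 libraries of 24 months, at 38.5 to 171 CPM. It was also in all those of 9 months, at 0.565 to 24.2 CPM, and of 15 months, at 7.73 to 91.5 CPM. The differences were therefore also fitted with the log2 Alb level as a covariate. The 9 and 24 month libraries did not overlap in Alb, so for these 2 ages the fit cannot separate Alb from age. The rise of Mbp over 9 months was then 0.29 (adjusted p = 0.00135), that of Mag 0.27 (0.0126), that of Mog 0.28 (0.0143) and that of Cnp 0.22 (0.0267), while that of Opalin was 0.37 and no longer passed (0.102). Against 15 months, a GC correction for each library gave 852 genes higher and 1336 lower over all genes, where the fit without it gave 2076 and 2138. It left the rise of Mag at 0.16 (adjusted p = 0.0416) and that of Cnp at 0.10 (0.164), and without 15 months replicate 3 that of Mog was 0.17 (0.0573). Against 2 months, the lower level of Cldn11 at 24 months was -0.22 with this covariate (adjusted p = 0.0429) and that of Mog -0.25 (0.0421). In the fit that took in the 30 month libraries 1 of the 6 rises over 15 months, that of Mbp, passed. Of 5 astrocyte markers 2 were higher at 24 than at 2 months, Gfap (0.82) and Aldh1l1 (0.21), and 0 lower; their summed level was 1287 to 1314 CPM at 2 months and 1427 to 1623 CPM at 24 months, and their part in the members' changes was not tested.

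The makeup of the group can be read without library scaling from the ratio of each gene to Mbp in the same library. At 9 months Mog, Mag, Cnp, Opalin and Cldn11 were lower relative to Mbp in all 5 libraries than in any 2 month library, 5 of 8 genes, where the same held for 1.27% of all genes. Ermn was higher in all, where that held for 2.04%. At 15 months Mal joined the lower genes, making 6 of 8, where the share of all genes was 1.01%, and Ermn was again higher, where the share was 5.40%. These shares are not a like background. Within an age r with Mbp was 0.80 for Mag, 0.66 for Cnp, 0.63 for Mog, 0.29 for Opalin and 0.27 for Cldn11, and a gene that varies with Mbp has a steadier ratio. A small constant was also added to levels for the shares only. Mbp did not pass the test at 9 or 15 months, so these ratios largely repeat the changes in level. The log2 ratio of Mog to Mbp was -4.92 ± 0.09 at 2 months (SD, n = 5), -5.44 ± 0.11 at 9, -5.38 ± 0.04 at 15 and -5.49 ± 0.07 at 24 months. For Mag it was -3.72 ± 0.04, -4.00 ± 0.05, -3.96 ± 0.06 and -4.00 ± 0.06 at the same ages. So the ratios of Mog and Mag to Mbp at 24 months lay near those at 9 months, although the level of each was higher at 24 months. The same 6 genes were below 2 months in all libraries at 24 months, but there 41.8% of all genes were too and 0.458% above, and Mbp itself was higher at that age. Mobp overlapped 2 months at all 3 ages.

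**Figure D3:**
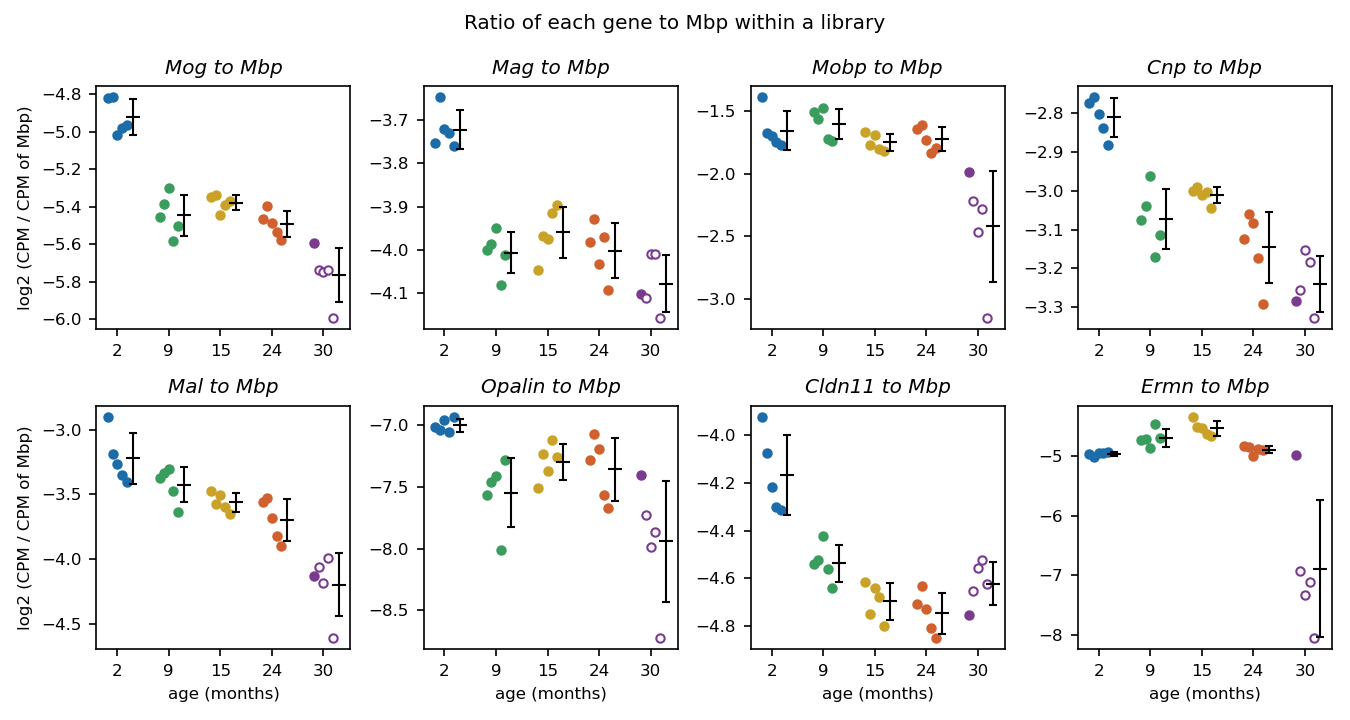
Log2 ratio of each gene's CPM to that of Mbp in the same library, by age in months. Each circle is 1 library, bars give the mean ± SD of 5 libraries, open circles are 30 months replicates 2 to 5, and each panel has its own y range. The ratios of Mog, Mag, Cnp and Cldn11 at 9, 15 and 24 months lie below the whole range of 2 months, and that of Mobp overlaps it.

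Within an age, libraries high for 1 member tended to be high for the others, apart from Ermn. Over the 20 libraries of 2 to 24 months, with each age's mean removed, Pearson's r of the 36 pairs of members ran from -0.39, for Opalin with Ermn, to 0.92, with a median of 0.49. It was above 0 in 30 pairs and above 0.5 in 18. Ermn had r = 0.44 with Mbp, 0.02 with Mag and -0.39 to -0.00 with the rest. With the age means kept in, Cnp followed the mean of the other 8 members most closely (r = 0.96), then Mag (0.91) and Mog (0.85), whereas Ermn ran against it (-0.51). These values are descriptive, since the genes share libraries and scaling.

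At 30 months the picture depended on the 4 libraries with the large GC gap. In the fit of all 25 libraries, in which 17799 genes were tested, 4 members were higher than at 2 months, Mbp, Mag, Cnp and Cldn11, and 3 were lower, Mog, Mal and Ermn. The background was high too: 28.5% of all genes were higher and 29.5% lower. The call of Cldn11 was lost in 24 of 32 alternatives, and its direction changed in 1 more. Mbp rose most, with 3231 CPM in replicate 1 and 4148, 3316, 3915 and 4911 CPM in replicates 2 to 5. All 5 libraries lay above every younger library. Against 2 months alone 11.4% of all genes lay wholly above, and the share above every younger library was not counted. The log2 fold change from 2 months was 0.67 ± 0.08 (adjusted p = 8.43e-07), 0.59 after GC correction (3.94e-07) and 0.39 with replicate 1 alone (0.000768), where that library's spread is taken from the other groups.

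The other members had less constant values at 30 months. Ermn was at 102 CPM in replicate 1, within the range of 24 months, and at 33.9, 20.5, 28.2 and 18.5 CPM in replicates 2 to 5. Its log2 fold change from 2 months was -0.96 ± 0.28 (adjusted p = 0.00514) with all 5 libraries, -0.33 after GC correction (0.0903) and 0.36 with replicate 1 alone (0.0594). The direction thus turned on these libraries. Mag, the member with the highest GC content, had 188 CPM in replicate 1 and 206 to 275 CPM in the others; its change from 2 months was 0.31 ± 0.08 (adjusted p = 0.00134), 0.01 after GC correction (0.868) and 0.01 with replicate 1 alone (0.954). Cnp went from 0.24 ± 0.07 (adjusted p = 0.00850) to 0.01 (0.907) and -0.08 (0.670) in the same way. Cldn11 had 119.9 CPM in replicate 1 and 141 to 199 CPM in the others, and its change of 0.22 ± 0.09 (0.0438) became 0.14 (0.162) and -0.19 (0.305). The fall of Mal was -0.31 ± 0.09 (adjusted p = 0.00696), -0.26 after GC correction (0.0263) and -0.52 with replicate 1 alone (0.0492). For Mog it was -0.18 ± 0.07 (adjusted p = 0.0309), -0.20 (0.0151) and -0.28 (0.120).

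**Figure D4:**
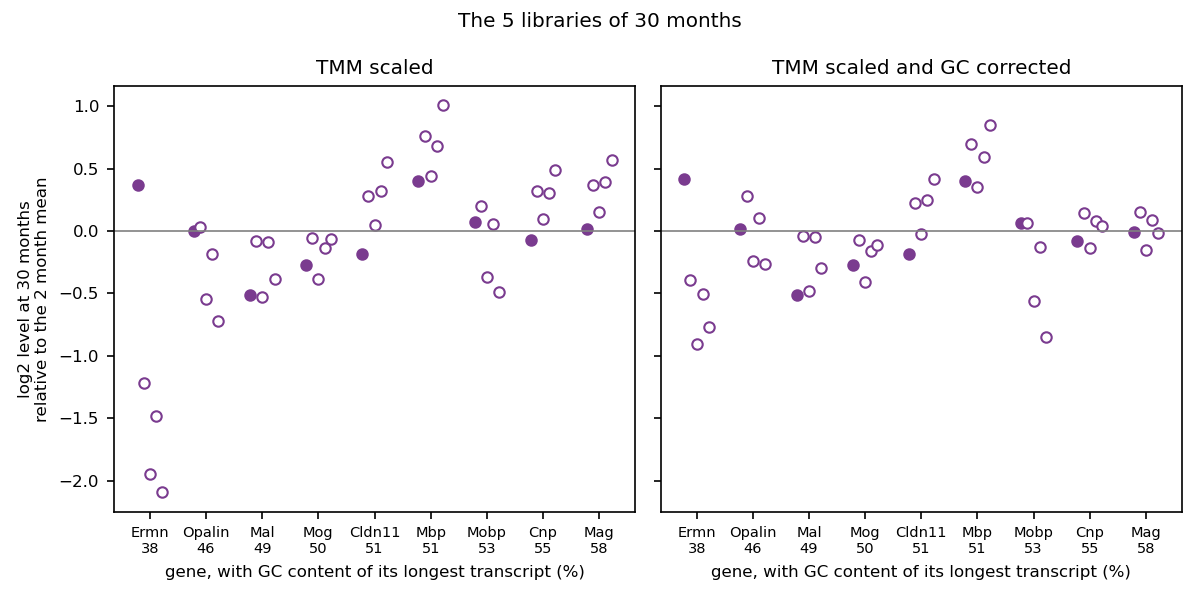
Log2 level of each gene in the 5 libraries of 30 months relative to its 2 month mean, before (left) and after (right) GC correction. Genes stand in order of the GC content of their longest transcript, given in percent under each name; the filled circle is replicate 1 and open circles are replicates 2 to 5. Before correction the open circles of Ermn lie far below the line and those of Mag above it, and Mbp is above the line in all 5 libraries in both panels.

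Against 24 months, the 30 month group was higher for Mbp (log2 fold change 0.42 ± 0.08), Mag (0.34 ± 0.08), Cnp (0.32 ± 0.07) and Cldn11 (0.55 ± 0.09) and lower for Mobp (-0.27 ± 0.10) and Ermn (-1.28 ± 0.28), where 25.5% of all genes were higher and 29.0% lower. For Mbp, Mag and Cldn11 all libraries of 30 months lay above all those of 24 months, as for 8.08% of all genes. With replicate 1 alone 0 of the 9 members passed the edgeR test, 0 had an unadjusted p under 0.05, no other tool was run in that setting, and the value was 0.14 for Mbp (edgeR, adjusted p = 0.366) and 0.03 for Ermn (0.935). After GC correction Mbp (0.34, adjusted p = 0.000282), Cldn11 (0.47, 8.43e-05), Mobp (-0.41, 0.0117) and Ermn (-0.71, 0.000892) still passed, and Mag (0.08, 0.256) and Cnp (0.12, 0.0826) did not.

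Other genes of oligodendrocytes and myelin changed in both directions. Of 93 further genes in 6 lists, all of them tested, 7 were higher and 17 lower at 9 than at 2 months, with a median log2 fold change of -0.03. Over all genes 7.92% were higher and 6.96% lower in that comparison. At 24 against 9 months 32 of the 93 were higher and 8 lower, with a median of 0.06. The shares of all genes there were 15.4% higher and 15.3% lower. These lists were drawn up with earlier results of the same data known.

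Among 20 other proteins of the myelin membrane and its cytoskeleton, 2 rose and 4 fell by 9 months. The shares of all genes were 7.92% and 6.96%. Gsn, an actin-severing protein, ranged over 66.4 to 81.1 CPM at 2 months and fell to a range of 48.4 to 55.1 CPM at 9 months (log2 fold change -0.47, adjusted p = 4.91e-06). Sirt2, a deacetylase of myelin, also fell (-0.21, 4.13e-05), as did the tetraspanin Cd9 (-0.19, 0.00820), while Plekhb1 rose (0.12, 0.00907). By 24 months Plekhb1 and Cd9 were above 2 months (0.32, adjusted p = 4.59e-08, and 0.24, 0.000512).

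Enzymes of myelin lipid synthesis showed a mixed course, with 2 of 11 higher and 3 lower at 9 months, against 7.92% and 6.96% of all genes. Fa2h, which hydroxylates fatty acids of myelin lipids, was lower at 9 months (log2 fold change -0.17, adjusted p = 0.0192), at 15 months (-0.34, 4.11e-05) and at 24 months (-0.29, 9.25e-05). Ugt8a, which makes galactosylceramide, was lower at 24 months (-0.32, 0.000682), and its value at 15 months was -0.16 (0.0848). Gal3st1, which sulfates that lipid, was lower at 15 months (-0.34, 0.00243). Aspa, which frees acetate from N-acetylaspartate, was lower at 9 months (-0.23, 0.00464) and higher at 15 months (0.19, 0.0218).

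Genes of the contact between axon and glia had 3 of 15 higher and 3 lower at 9 months, against 7.92% and 6.96% of all genes. Hapln2, a link protein of the matrix at nodes of Ranvier, ranged over 18.6 to 23.2 CPM at 2 months and had 34.7 ± 3.67 CPM at 24 months, where it was higher (log2 fold change 0.77, adjusted p = 1.85e-07). Gjb1, a connexin of oligodendrocytes, was also higher at 24 months (0.51, 1.36e-05). Nfasc, the neurofascin of nodes and paranodes, was lower there (-0.19, 2.39e-05), and Cadm4, an adhesion molecule of the internode, was lower at 15 months (-0.24, 1.09e-05).

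Of 15 transcription factors of the lineage, 8 differed between 24 and 2 months, where 22.8% of all genes did. At 9 months 0 of 15 passed the edgeR test, 5 had an unadjusted p under 0.05, and DESeq2 and limma-voom each called 1, where 6.96% of all genes were lower and 7.92% higher. At 24 months 7 were above 2 months and 1 below, and the difference between the counts at 9 and 24 months was not tested. Myrf was higher by 0.38 (adjusted p = 3.22e-06), Sox10 by 0.26 (6.90e-05), Olig1 by 0.27 (6.22e-06) and Nkx6-2 by 0.50 (0.000155). Nkx6-2 stood at 10.1 to 12.1 CPM at 24 months against 6.50 to 9.02 CPM at 2 months.

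Genes of premyelinating oligodendrocytes, the stage between precursor and mature cell, were mostly lower. By 9 months 6 of 9 fell, where 6.96% of all genes were lower and 7.92% higher. At 24 months 5 were lower and 1 higher, where 22.8% of all genes differed from 2 months. Gpr17, the receptor that marks this stage, ranged over 48.3 to 72.4 CPM at 2 months, 42.4 to 51.8 at 9, 35.5 to 45.6 at 15 and 25.9 to 31.8 at 24 months. Its log2 fold change from 2 months was -0.42 at 9 months (adjusted p = 0.0134) and -1.17 at 24 months (1.59e-06). Rras2 (-0.36, adjusted p = 0.000343), Cemip2 (-0.26, 0.000225) and the kinase Fyn (-0.12, 0.000831) were lower at 24 months too. Against the same shares of all genes, 0 of 23 other genes of mature oligodendrocytes rose and 1 fell by 9 months. At 24 months 7 of these 23 were higher and 1 lower. Trf, the transferrin of oligodendrocytes, was higher by 0.55 (adjusted p = 1.30e-06), S1pr5 by 0.44 (2.73e-05), Evi2a by 0.39 (2.05e-06) and Arhgef10 by 0.37 (5.55e-05).

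Of the genes ranked, Gsn had the course most like that of the members, with r = 0.89 to the mean centred log2 level of the 9 genes over the 20 libraries of 2 to 24 months. After it came Golim4 and Slc7a5 (both r = 0.86), Fgd3 and Sirt2 (both 0.85) and Sox12 (0.84), then Cers2, Tagln, Sdr39u1 and Dgat2 (all 0.83). These 10 had the highest r among genes of at least 5 CPM, with pseudogenes, predicted gene models, Rik genes and genes without a name left out. All points share library depth and scaling. Golim4 did not pass the F test over the 4 ages (adjusted p = 0.0872), and r also takes in variation within an age. Of the 10, Gsn, Sirt2 and Cers2, a ceramide synthase, also stand in the oligodendrocyte lists.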

How the data were processed

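RNA of 25 brain hemispheres was sequenced, 5 libraries at each of 5 ages, and libraries were grouped by the age in the labels. Per the submitters' processing notes, the authors used CASAVA 1.7, STAR 2.4.1d, featureCounts 1.4.6-p4 and GRCm38, and deposited raw counts per Ensembl gene. The annotation release and counting settings are not given in the sources used here. A deposited table of RPKM was not used here. Of 47729 genes, 47310 match GENCODE M21, which gives names, positions, lengths and GC content, and 419 do not. Library totals were 17800113 to 31261121 counts, and the errors given are between libraries, with 5 at each age.

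Counts were fitted with edgeR 4.0.16 in R 4.3.3 (filterByExpr, TMM, robust quasi-likelihood), for the 20 libraries of 2 to 24 months (17472 genes) and for all 25 libraries in the comparisons of 30 months (17799 genes). Tests are two-sided, with the Benjamini-Hochberg adjustment taken over every gene tested and a threshold of 0.05. GC correction used a lowess curve of span 0.3 per library as an offset. Alternatives were DESeq2 1.42.0, its size factors, limma-voom of limma 3.58.1, no filter, GC correction, Alb as covariate, all 25 libraries together, each library left out, 30 months replicates 2 to 5 left out and, chosen after seeing the data, library weights. The script was tested on simulated data. All 9 members are named, up to 4 genes per list with the smallest F test p, and the 10 genes of at least 5 CPM most correlated with the members. Pseudogenes, predicted gene models, Rik genes and genes without a name were left out of that ranking. Markers of other cells are named where they stand beside a result. The members, lists and tests were chosen with earlier results of these data known.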

Additional observations from a re-analysis of the deposited data

Results flagged for a closer look

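In 2 of 45 groups of 5 libraries, 1 per gene and age, 1 library lay far from the other 4, with a gap to its neighbour of more than 0.71 of the group's range on the log2 scale. Chance alone picks out about 1 in 20 such groups. Mog in 15 months replicate 3 was lowest, at 51.4 CPM. Opalin in 9 months replicate 4 was lowest, at 8.85 CPM.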

How the results depend on the processing

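For 2 to 24 months, 54 member results under 27 alternatives each gave 1458 values: 1417 stayed on their side of the threshold, 25 lost a call, 16 gained one and 0 changed direction with a call. Of the 25, 12 came from fitting all 25 libraries together and 11 were the fall of Cldn11 from 9 to 15 months. For 30 months, 526 of 576 values stayed, 43 lost a call, 3 gained one and 4 changed direction. Of the 43, 24 were the rise of Cldn11 from 2 to 30 months. A change of direction was counted only where either value passed. With 30 months replicates 2 to 5 left out the log2 fold change from 2 months was -0.08 for Cnp, -0.19 for Cldn11 and 0.36 for Ermn, and that of Ermn from 24 months was 0.03. The causes were not tested.

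Fitting all 25 libraries together changed the genes called from 2599 to 423 (9 against 2 months), 2281 to 224 (15 against 2), 3977 to 931 (24 against 2), 1904 to 3 (15 against 9), 5374 to 1572 (24 against 9), 4214 to 201 (24 against 15) and 7914 to 1535 (F test). Members called went from 4 to 2 (24 against 2), 1 to 0 (15 against 9) and 6 to 1 (24 against 15). GC correction gave 1446 genes (15 against 2), 934 (15 against 9) and 2188 (24 against 15), 0 members at 15 against 9 and 3 of 7 at 30 against 2 months. The Alb covariate gave 2057 genes (24 against 2), 3176 (24 against 9) and 0 members at 15 against 9 months, as did leaving out the filter. DESeq2 and limma-voom each gave 2 members there. Without 30 months replicates 2 to 5 the genes called fell from 10324 to 1639 against 2 months and from 9701 to 739 against 24 months, with 2 and 0 members.

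Leaving out 1 library at a time gave 1361 to 2397 genes at 15 against 2 months, lowest without 15 months replicate 1, and 1170 to 2068 at 15 against 9 months, lowest without 9 months replicate 3, with 0 to 2 members. The members at 15 against 9 months were 0 without any 1 of 9 months replicates 1, 2 and 3 and 15 months replicates 2, 3, 4 and 5, and 2 without 9 months replicate 4 or 5. No paired analysis was possible because replicate numbers are given by accession order and tie no animals across ages.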
